A study of Mus musculus with 6 samples.

Results

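The clock output genes of the mouse liver were examined 24 hours after a dose of CCl4. This set was chosen by name: *Per1*, *Per2* and *Per3*, the PAR bZIP genes *Dbp*, *Tef* and *Hlf*, and the repressor genes *Nfil3*, *Bhlhe40*, *Bhlhe41* and *Ciart*. All 10 were found among the 24346 genes of the table. Of these, 9 reached 0.5 FPKM on average over the 6 libraries and were tested among 11956 genes, and *Per3* lay under this limit. FPKM counts sequenced fragments per length of transcript and per size of library, so levels of different genes can be set beside each other.

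RNA of the whole liver was sequenced from male C57/BL6 mice aged 8 weeks, 3 med23 f/f controls (labelled wt) and 3 med23 Δli mice (labelled med23 ko), with 1 mouse per library. Every mouse had received 0.6 μl CCl4 per g body weight in sunflower oil by intraperitoneal injection. The controls are therefore injured livers and not untreated ones. The injury was not equal in the groups. After acute CCl4 the paper reports substantial necrosis in control livers and hardly any in med23 Δli livers. It also reports fewer apoptotic cells and lower serum ALT and AST, enzymes released by damaged hepatocytes, in med23 Δli mice. The part of this difference in damage in the levels below was not tested. All mice carry floxed *Med23*, a subunit gene of the Mediator complex, and in med23 Δli mice *Albumin*-cre removes the floxed part in hepatocytes but not in other liver cells. The mice were housed under a cycle of light and dark, and the time of day at injection and at collection is not given in the sources used here. In the deposited values *Med23* did not tell the groups apart, with 3.42, 2.97 and 4.14 FPKM in the controls and 3.40, 3.40 and 2.91 FPKM in livers labelled med23 Δli (log2 fold change −0.11, adjusted p = 0.685, limma). Each direction below therefore rests on the labels. In RNA of a whole liver, fewer cells of one type and less RNA per cell cannot be told apart.

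The circadian clock is a loop of transcription in which CLOCK and ARNTL (BMAL1) bind E-boxes and activate *Per* and *Cry* genes, whose proteins in turn block CLOCK and ARNTL. Other E-box genes carry the rhythm outward. DBP, TEF and HLF are bZIP activators with a proline and acidic rich (PAR) domain that bind D-boxes, and NFIL3 (E4BP4) represses through the same sites. BHLHE40 and BHLHE41 (DEC1 and DEC2) repress at E-boxes, CIART (CHRONO) represses CLOCK and ARNTL, and in liver the PAR bZIP factors are known for driving rhythmic genes of drug metabolism.

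The promoters of these genes are shown because their E-boxes, D-boxes and ROR elements are the sites through which the loop is known to act. RefSeq promoters (GRCm38.p6, the assembly of mm10) were found for 8 of the 10 genes, 10 promoters in all, each covering 250 bases before and 50 after the annotated start. *Tef* and *Per1* have 2 starts each. The letters searched on both strands were CACGTG for the E-box, TTATGTAA and TTACGTAA for the D-box and TAGGTCA for the core of the ROR element. The stretches that hold a match are printed 5′ to 3′ on the strand of the gene, with the motif in capitals.
Ciart, chr3:95882257-95882354, minus strand, 3 E-boxes: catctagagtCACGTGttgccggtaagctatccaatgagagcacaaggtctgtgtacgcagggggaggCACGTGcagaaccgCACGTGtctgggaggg
Tef, first start, chr15:81802534-81802563, plus strand, E-box: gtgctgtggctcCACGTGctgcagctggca
Tef, second start, chr15:81811264-81811293, plus strand, E-box: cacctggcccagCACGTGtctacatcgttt
Per1, chr11:69098771-69098800, plus strand, E-box: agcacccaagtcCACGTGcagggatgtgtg
Bhlhe41, chr6:145865556-145865585, minus strand, E-box: tggtacgttccgCACGTGagctgggtgctg
Per3, chr4:151044806-151044880, minus strand, 2 D-boxes: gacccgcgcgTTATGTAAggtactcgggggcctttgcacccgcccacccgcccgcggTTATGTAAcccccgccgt
Nfil3, chr13:52981034-52981062, minus strand, ROR element core read on the opposite strand: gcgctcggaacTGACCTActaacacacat

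An E-box stood in 5 of the 10 promoters, from 4 of the 8 genes, against 7.15% of the 32851 promoters in the RefSeq table. The E-boxes of *Ciart* began at positions −116, −58 and −44, counted from the start site. Those of *Tef* began at −127 and −138 of their own starts, that of *Per1* at −166 and that of *Bhlhe41* at −153. *Per3* was the gene with D-boxes, at −205 and −158, and 1.06% of all promoters hold one. The core of the ROR element stood at −12 in *Nfil3* and is held by 2.61% of all promoters. The promoters of *Dbp* and *Hlf* and the other start of *Per1* held none of these letters. The printed stretches of *Bhlhe41*, *Nfil3* and the first start of *Tef* overlap annotated exons of these genes. That of *Tef* overlaps an exon of *Gm17597* as well. A match is a string of letters in this window and not a measured binding site.

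**Figure D1:**
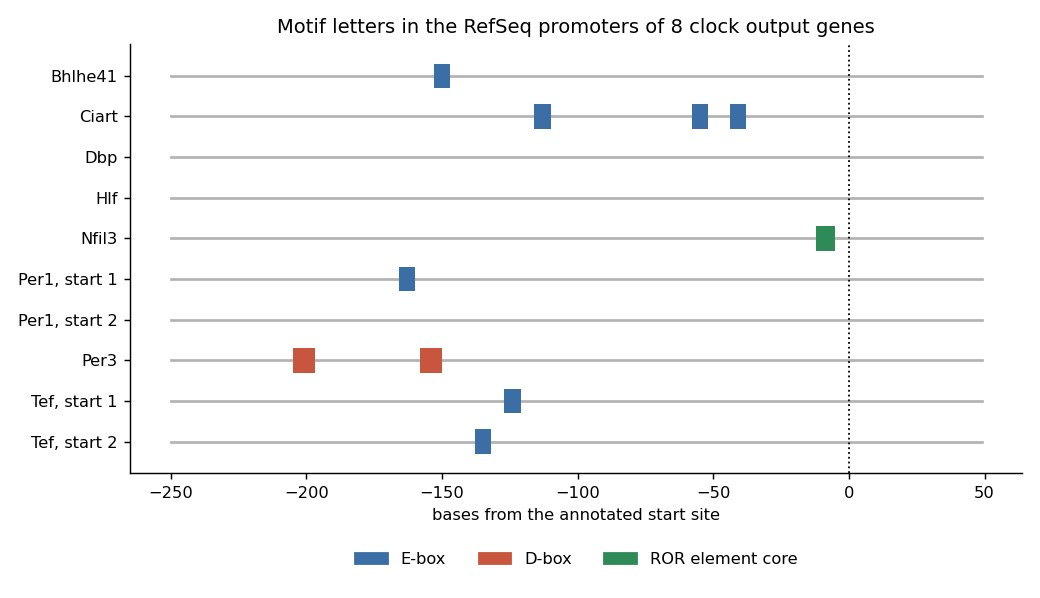
Positions of the E-box, D-box and ROR element letters in the 10 RefSeq promoters of 8 clock output genes, in bases from the annotated start site (dotted line), with one grey line per promoter. *Ciart* holds 3 E-boxes and *Per3* 2 D-boxes, whereas *Dbp*, *Hlf* and the second start of *Per1* hold none.

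Of the 9 genes tested, *Tef* and *Nfil3* rose in livers labelled med23 Δli, both by more than 2-fold, 0 fell and 7 did not pass the test (limma on log2(FPKM + 0.1), adjusted p under 0.05 over all genes tested). Over all 11956 genes, 11.6% rose and 9.48% fell, and past 2-fold 4.45% rose and 3.45% fell. At an unadjusted p under 0.05, 3 of the 9 genes were higher (*Ciart* is the other one) and 0 were lower, beside 20.5% and 17.1% of all genes tested. In sign, 7 were higher and 2 were lower, and 52.2% of all genes tested were higher. The median log2 fold change of the 9 genes was 0.62, beside 0.02 over all genes tested.

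**Figure D2:**
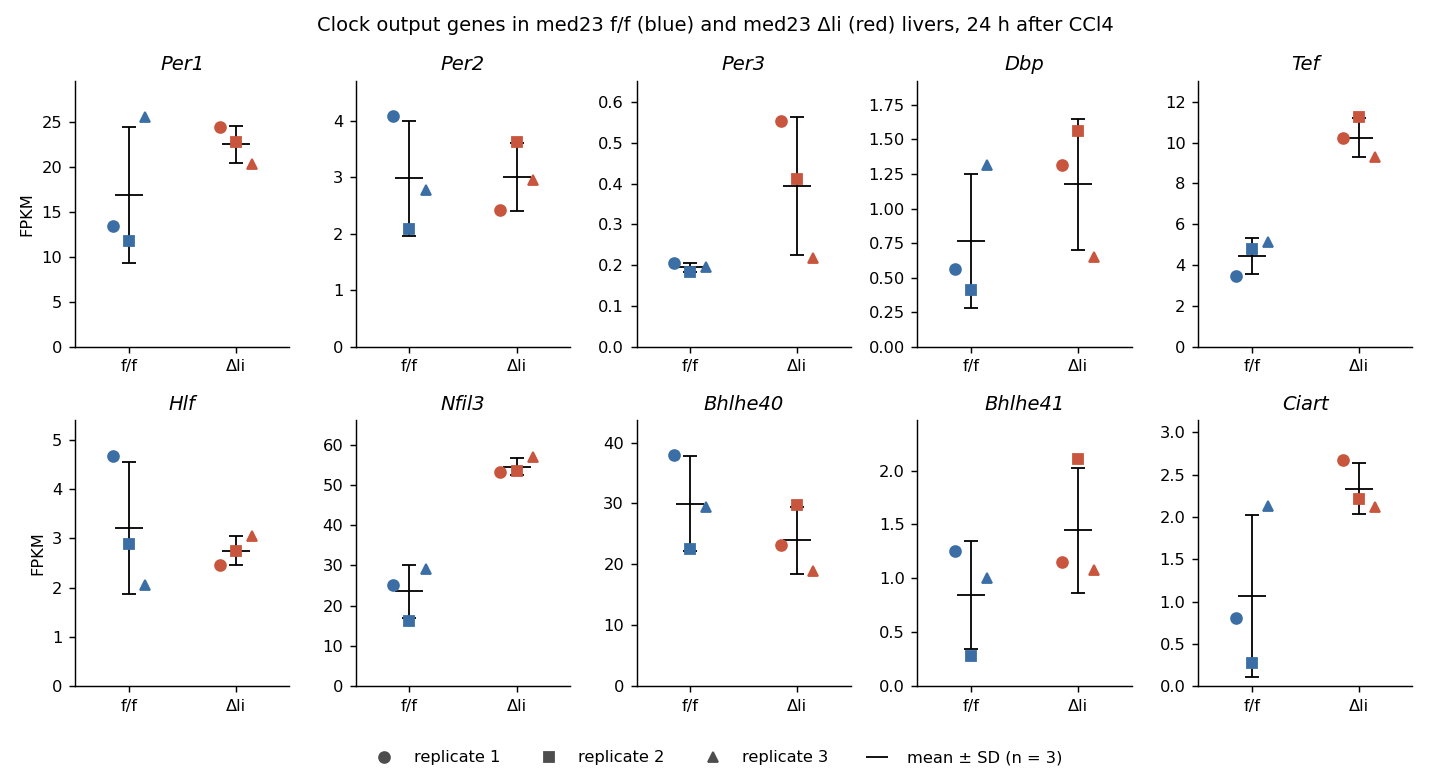
FPKM of the 10 clock output genes in each liver, with med23 f/f in blue, med23 Δli in red, one symbol per replicate, and the mean ± SD of 3 livers as black lines. The groups stand apart in *Tef*, *Nfil3* and *Per3*, and control replicate 3 (blue triangle) lies among the med23 Δli livers in *Dbp* and *Ciart* and above them in *Per1*.

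*Tef*, thyrotroph embryonic factor, is the PAR bZIP gene that rose. Its level was 3.45, 4.78 and 5.12 FPKM in the controls and 10.2, 11.2 and 9.27 FPKM in livers labelled med23 Δli. The lowest med23 Δli liver was above the highest control. Mean levels of 4.45 ± 0.886 and 10.2 ± 0.978 FPKM (SD, n = 3 each) stood in a ratio of 2.30. On the log2 scale the difference was 1.20 (standard error 0.18), with a 95% interval from 0.79 to 1.61 (adjusted p = 0.00621, limma). By an exact two-sided permutation test p was 0.1, the smallest possible for 3 livers against 3. In mm10 *Tef* (ENSMUSG00000022389.15) spans 81802421 to 81826863 of chromosome 15, plus strand.

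The other PAR bZIP genes did not pass. *Hlf*, hepatic leukemia factor, was at 4.68, 2.88 and 2.06 FPKM in the controls and at 2.46, 2.75 and 3.04 FPKM in livers labelled med23 Δli. All 3 med23 Δli values lay inside the range of the controls, a log2 fold change of −0.14 with a 95% interval from −0.79 to 0.50 (adjusted p = 0.742, limma). *Dbp*, the D-box binding protein, was at 0.560, 0.414 and 1.32 FPKM in the controls and at 1.31, 1.56 and 0.647 FPKM in livers labelled med23 Δli. In each group 1 liver lay at the level of the other group, control replicate 3 and med23 Δli replicate 3. *Dbp* had a log2 fold change of 0.62 with a 95% interval from −0.42 to 1.66 (adjusted p = 0.343, limma), an interval that holds both no difference and more than a 2-fold rise. Of the exonic bases annotated for *Dbp* on chromosome 7 (45705088 to 45710203, plus strand), 18.0% are shared with *Sphk2* on the opposite strand. The TruSeq v2 kit does not mark the strand, so reads there cannot be told apart.

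*Nfil3*, the D-box repressor, rose as *Tef* did. It was at 25.2, 16.3 and 29.1 FPKM in the controls and at 53.4, 53.4 and 57.0 FPKM in livers labelled med23 Δli. The med23 Δli livers lay within a factor of 1.07 of each other, the controls within 1.79, and the groups did not overlap. Mean levels of 23.5 ± 6.57 and 54.6 ± 2.07 FPKM (SD, n = 3 each) stood in a ratio of 2.32. On the log2 scale the difference was 1.25 (standard error 0.21), with a 95% interval from 0.76 to 1.74 (adjusted p = 0.00855, limma, exact two-sided permutation p = 0.1). In mm10 *Nfil3* (ENSMUSG00000056749.7) spans 52967209 to 52981073 of chromosome 13, minus strand, and no other annotated exon overlaps its exons. Values of the groups did not overlap in 2 of the 9 genes tested, *Tef* and *Nfil3*, against 43.7% of all genes tested.

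Activators and repressor of the D-box were then set beside each other in each liver. The summed level of *Dbp*, *Tef* and *Hlf* was 8.68, 8.08 and 8.50 FPKM in the controls and 14.0, 15.5 and 13.0 FPKM in livers labelled med23 Δli. The controls were close to each other (8.42 ± 0.309 FPKM) and all lay under the med23 Δli livers (14.2 ± 1.30 FPKM, SD, n = 3 each, exact two-sided permutation p = 0.1). The even sum of the controls was made of unequal parts. *Tef* was 39.7%, 59.2% and 60.3% of it in the controls and 73.1%, 72.3% and 71.5% in livers labelled med23 Δli. The share of *Hlf* was 37.9% ± 14.9 in the controls and 19.6% ± 3.37 in the others (exact permutation p = 0.1 for either share). It was 24.2% in control replicate 3 and 23.5% in med23 Δli replicate 3, so the groups nearly touched. Shares of one sum are not separate observations, and the level of *Hlf* itself did not pass the test. *Dbp* made up 9.02% ± 5.64 and 8.14% ± 2.75 (exact permutation p = 0.8), the smallest part on average in both groups.

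*Nfil3* exceeded the summed PAR bZIP level in all 6 livers. It was 2.91, 2.02 and 3.43 times that sum in the controls and 3.81, 3.44 and 4.40 times in livers labelled med23 Δli. As a log2 ratio of activators to repressor, this was −1.44 ± 0.39 in the former and −1.95 ± 0.18 in the latter (SD, n = 3 each), a difference of −0.51 with an exact two-sided permutation p of 0.1, the smallest possible. The gap between control replicate 3 and med23 Δli replicate 2 was small, at log2 ratios of −1.78 in both after rounding. Leaving out each liver in turn moved the difference between −0.67 and −0.29. The latter was without control replicate 2, the liver with the lowest *Nfil3*.

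**Figure D3:**
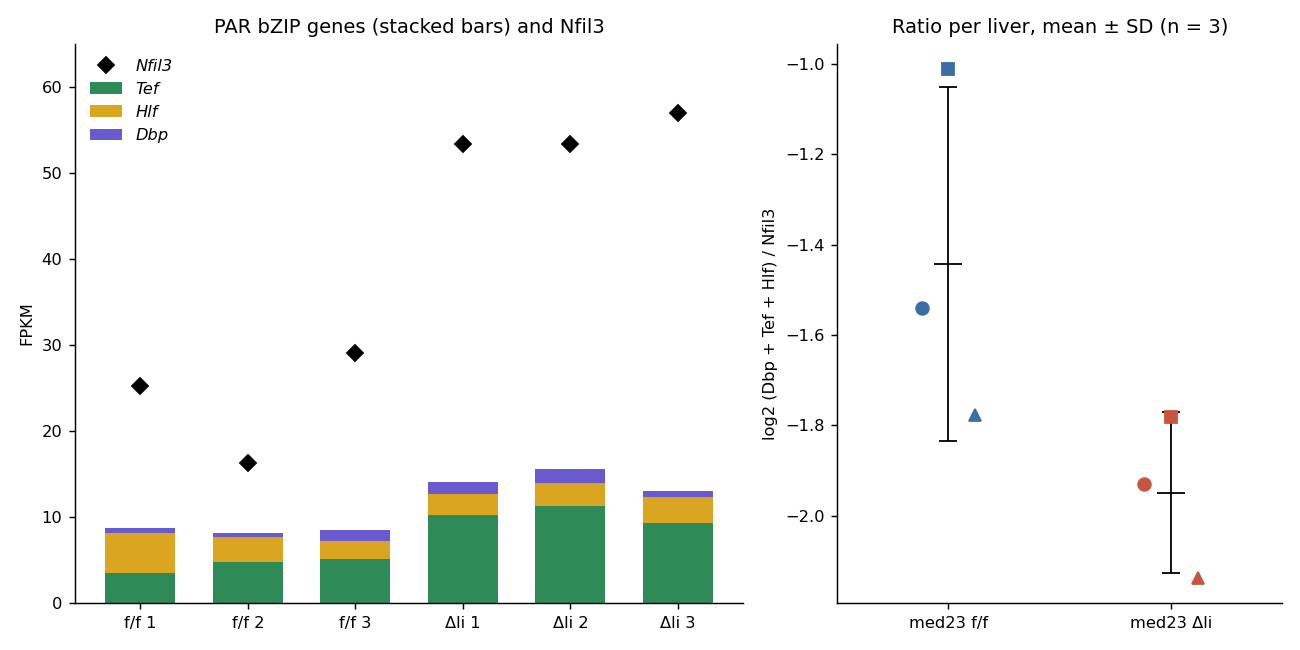
Left, FPKM of *Tef*, *Hlf* and *Dbp* as stacked bars and of *Nfil3* as black diamonds in each of the 6 livers. Right, the log2 ratio of the stacked sum to *Nfil3* per liver with the mean ± SD of 3 livers (circle, square and triangle for replicates 1, 2 and 3), −1.44 in med23 f/f and −1.95 in med23 Δli.

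Among the *Per* genes, which encode the repressors that pair with cryptochromes, none passed the test. *Per1* was at 13.4, 11.7 and 25.6 FPKM in the controls and at 24.5, 22.8 and 20.3 FPKM in livers labelled med23 Δli. Control replicate 3 had the highest level of all 6 livers, and the other 2 controls lay under every med23 Δli liver. The log2 fold change was 0.49 with a 95% interval from −0.14 to 1.13 (adjusted p = 0.226, limma). *Per2* was at 4.09, 2.08 and 2.77 FPKM in the controls and at 2.42, 3.62 and 2.95 FPKM in livers labelled med23 Δli, with both the highest and the lowest value in controls. Its means were 2.98 ± 1.02 and 3.00 ± 0.599 FPKM (SD, n = 3 each). Its log2 fold change was 0.04 with a 95% interval from −0.57 to 0.65 (adjusted p = 0.924, limma), and it turned to −0.18 without control replicate 2 and to −0.10 without med23 Δli replicate 2.

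*Per3* was the least abundant of the 10 genes in either group. It was at 0.205, 0.184 and 0.196 FPKM in the controls and at 0.553, 0.412 and 0.217 FPKM in livers labelled med23 Δli. The groups did not overlap, but med23 Δli replicate 3 was close to the controls. Being under the filter it had no test in the main fit, and without a filter its log2 fold change was 0.68 (standard error 0.29, adjusted p = 0.183, limma). FPKM values carry no counts, so the reads behind such low levels in each library were not available, and no counting interval is given.

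*Ciart* did not pass. Its level was 0.801, 0.273 and 2.13 FPKM in the controls and 2.68, 2.21 and 2.12 FPKM in livers labelled med23 Δli. The controls spanned a factor of 7.82, with control replicate 3 at the level of the med23 Δli livers, which spanned a factor of 1.26. Its log2 fold change was 1.41 with a standard error of 0.56 and a 95% interval from 0.12 to 2.71 (unadjusted p from limma 0.0357, adjusted p = 0.108). The residual spread of *Ciart* on the log2 scale was larger than that of 97.9% of the genes tested. For *Tef* this percentile was 52.7 and for *Nfil3* 72.0.

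The basic helix-loop-helix repressors did not pass. *Bhlhe40* was at 38.0, 22.5 and 29.4 FPKM in the controls and at 23.3, 29.8 and 18.8 FPKM in livers labelled med23 Δli, with a log2 fold change of −0.31 and a 95% interval from −0.85 to 0.22 (adjusted p = 0.357, limma). Leaving out single libraries moved it between −0.50 (without control replicate 2) and −0.13 (without control replicate 1). *Bhlhe40* was the most abundant of the 10 genes in the controls. *Bhlhe41* was at 1.25, 0.281 and 1.00 FPKM in the controls and at 1.15, 2.11 and 1.07 FPKM in livers labelled med23 Δli. Control replicate 2 was the lowest of the 6 livers and med23 Δli replicate 2 the highest, and without the former the log2 fold change was 0.28. *Bhlhe41* had a log2 fold change of 0.84 with a 95% interval from −0.29 to 1.97 (adjusted p = 0.247, limma), and 19.0% of its exonic bases are shared with *Gm43909* on the opposite strand.

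**Figure D4:**
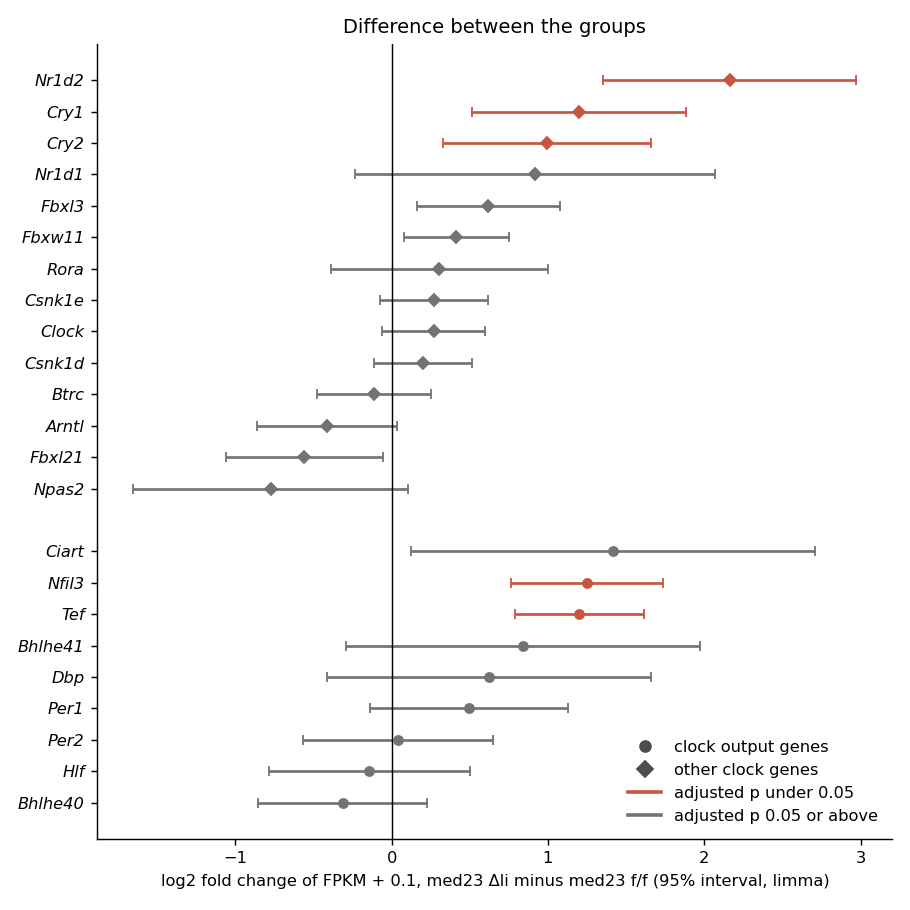
Log2 fold change of FPKM + 0.1 (med23 Δli minus med23 f/f) with its 95% interval from limma for the 9 clock output genes tested (circles) and 14 other clock genes (diamonds), in red where the adjusted p was under 0.05. *Tef* and *Nfil3* pass among the circles, and the interval of *Ciart* runs from 0.12 to 2.71.

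Set in order by mean FPKM, the control levels fell into 3 steps. *Bhlhe40*, *Nfil3* and *Per1* (30.0, 23.5 and 16.9 FPKM) overlapped each other and lay above the rest. *Tef*, *Hlf*, *Per2*, *Ciart*, *Bhlhe41* and *Dbp* followed, from 4.45 down to 0.764 FPKM, each overlapping the next in range, and *Per3* lay under all of them at 0.195 FPKM. In the livers labelled med23 Δli, *Nfil3* stood alone at the top (54.6 FPKM), above *Bhlhe40* and *Per1* (24.0 and 22.5 FPKM), which overlapped. *Tef* (10.2 FPKM) stood apart from *Per1* above it and from *Per2* (3.00 FPKM) under it. *Per2*, *Hlf* and *Ciart* overlapped in turn, and so did *Bhlhe41* and *Dbp* under them, with *Per3* again last at 0.394 FPKM.

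Control replicate 2 was the lowest control in 8 of the 10 genes and the highest in 0, whereas it was the lowest control in 39.9% of all genes tested. The highest control was replicate 1 in 5 genes (*Per2*, *Per3*, *Hlf*, *Bhlhe40* and *Bhlhe41*) and replicate 3 in the other 5 (*Per1*, *Dbp*, *Tef*, *Nfil3* and *Ciart*). Among the livers labelled med23 Δli, replicate 3 was the lowest in 7 of the 10 genes, against 48.8% of all genes tested. The 10 genes share these libraries, so such counts describe the livers and are not separate observations. Without control replicate 3, 4 genes rose, as *Per1* (log2 fold change 0.83, adjusted p = 0.00930, limma) and *Ciart* (2.06, adjusted p = 0.0110, limma) then passed beside *Tef* and *Nfil3*. *Dbp* did not pass without it (1.05, adjusted p = 0.0864, limma). Without control replicate 2 the differences were smaller instead, at 0.77 for *Ciart*, 0.27 for *Per1* and 0.32 for *Dbp* (adjusted p = 0.197, 0.504 and 0.661, limma).

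**Figure D5:**
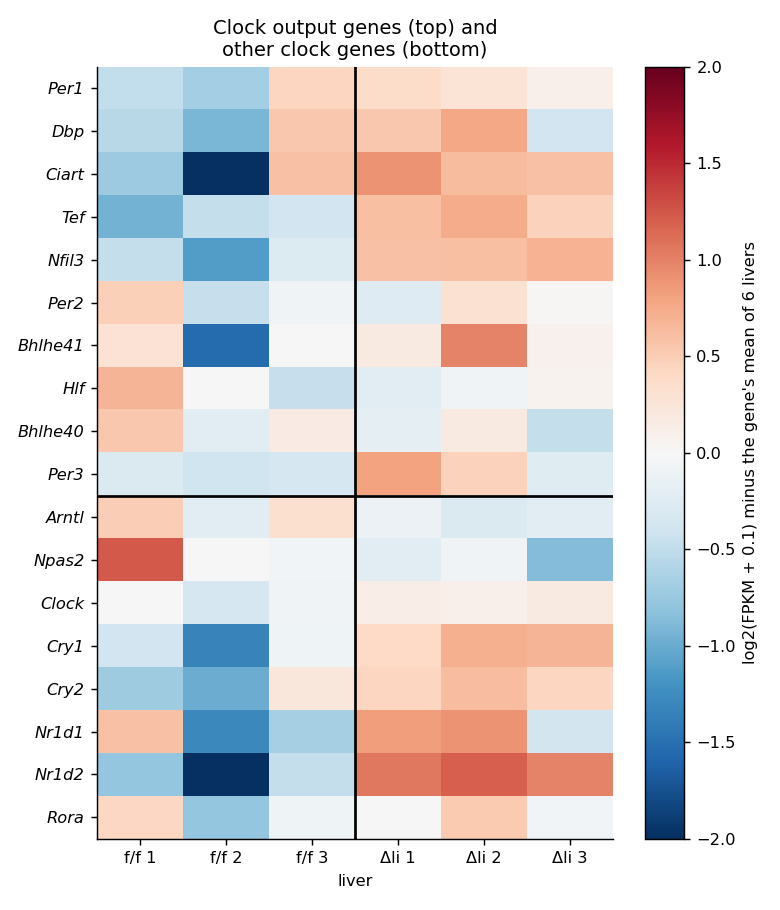
Level of each gene in each liver as log2(FPKM + 0.1) minus the mean of the gene over the 6 livers (red above, blue below), for the 10 clock output genes (top) and 8 other clock genes (bottom). Control replicate 2 is blue in most rows, from −1.99 in *Ciart* to 0.00 in *Hlf* among the clock output genes, and control replicate 3 is red in *Per1*, *Dbp* and *Ciart*.

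Among 16 other genes of the clock, 14 passed the filter, of which 3 rose and 0 fell, with a median log2 fold change of 0.29 (at an unadjusted p under 0.05, 1 gene, *Fbxl21*, was lower). *Nr1d2*, which encodes REV-ERBβ, a repressor at ROR elements, rose by 2.16 on the log2 scale (adjusted p = 0.00764, limma), from 4.01, 1.67 and 4.92 FPKM in the controls to 14.5, 16.0 and 13.8 FPKM. The groups did not overlap in this gene. The cryptochrome genes *Cry1* (1.20, adjusted p = 0.0278, limma) and *Cry2* (0.99, adjusted p = 0.0456, limma) rose too. In *Cry1* the levels were 9.53, 4.88 and 11.6 FPKM in the controls and 16.5, 20.5 and 20.0 FPKM in livers labelled med23 Δli. Both cryptochromes lost the call without control replicate 1, without any single med23 Δli liver and with no filter, with adjusted p up to 0.0971 for *Cry1* and 0.134 for *Cry2* (limma). *Cry2* lost it also without control replicate 2 (0.104), without a trend (0.0603) and with the replicate number as a block (0.0652). *Arntl*, the activator of the loop, was at 11.9, 7.24 and 10.5 FPKM against 7.74, 6.82 and 7.24 FPKM (log2 fold change −0.41, adjusted p = 0.161, limma), and *Nr1d1* did not pass either (0.92, adjusted p = 0.216, limma).

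Genes known as PAR bZIP targets did not move one way. Of 6 tested from 8 listed, *Cyp2b10* (log2 fold change 3.00, adjusted p = 0.0253, limma) and *Nr1i3* (2.46, adjusted p = 0.00130, limma) rose, *Cyp2a5* fell by 2.27 on the log2 scale (adjusted p = 0.00874, limma), and 3 did not pass. *Nr1i3* encodes the nuclear receptor CAR and *Cyp2b10* is a P450 gene that CAR induces. *Cyp2a5*, a P450 gene for coumarin, has the near-identical copy *Cyp2a4*, which lay under the filter, so reads could be split between them. *Nr1i3* was at 4.50, 7.89 and 4.83 FPKM in the controls and at 32.2, 33.0 and 28.3 FPKM in livers labelled med23 Δli, and *Cyp2a5* at 91.9, 83.4 and 247 FPKM against 21.2, 28.5 and 28.1 FPKM. In *Cyp2b10* the levels ran from 0.350 to 3.48 FPKM in the controls and from 5.41 to 18.1 FPKM in the others, and its call was lost in 7 of 15 alternatives, with an adjusted p of up to 0.0873 (limma) and a log2 fold change from 2.24 without control replicate 2 to 3.74 without control replicate 3.

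Of 7 other rhythmic liver genes tested, 2 rose and 0 fell, *Lpin1* (log2 fold change 1.38, adjusted p = 0.0389, limma), a phosphatidate phosphatase, and *Usp2* (1.14, adjusted p = 0.0170, limma), a ubiquitin protease. *Lpin1* lost its call in 8 of 15 alternatives, with an adjusted p of up to 0.126 (limma). *Usp2* lost it without med23 Δli replicate 1 (0.0767) and replicate 3 (0.0583), and a pseudocount of 1 gave 0.55 on the log2 scale. Hormones and injury signals also reach some clock genes directly, so genes induced by glucocorticoids, cAMP and serum were counted. Among 5 glucocorticoid genes, *Klf9* (1.72, adjusted p = 0.00188, limma) and *Tsc22d3* (0.79, adjusted p = 0.0236, limma) rose and *Fkbp5* fell by 1.03 (adjusted p = 0.0111, limma). *Tsc22d3* lost its call without any single med23 Δli liver (adjusted p up to 0.0921, limma) and *Fkbp5* without replicate 1 of that group (0.0526), whereas *Klf9* passed in all 15 alternatives. Among 5 genes induced by cAMP or serum, *Egr1* fell by 0.98 (adjusted p = 0.0102, limma), 0 rose and 4 did not pass. All 5 had their highest level of all livers in control replicate 3, as *Per1* did. In *Nr4a1* this level was 24.3 FPKM, against 5.04 and 2.35 in the other controls.

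Markers of other cells moved with the groups as well. All 6 endothelial markers fell, with a summed level of 81.4 to 119 FPKM in the controls and 43.7 to 46.9 FPKM in livers labelled med23 Δli. Of the pericentral hepatocyte markers 3 of 5 tested rose (*Cyp2e1*, *Cyp1a2* and *Axin2*, sum of the list 376 to 515 against 797 to 957 FPKM), and 3 of 6 periportal markers fell (*Sds*, *Hal* and *Cdh1*). General hepatocyte markers did not pass in any of 6, with sums of 31299 to 41411 and 26836 to 34217 FPKM. Of the stellate markers 2 of 6 fell (*Des* and *Colec11*). Over 15 alternatives the call was lost in 9 for *Des* and in 6 each for *Axin2* and *Cdh1*, with adjusted p up to 0.149, 0.105 and 0.109 (limma), in 4 for the endothelial marker *Lyve1*, and in at most 3 for the other endothelial, zonal and stellate markers that passed. Markers of Kupffer cells and macrophages (0 of 6), neutrophils (0 of 5) and bile ducts (0 of 5) did not pass, and all 6 lymphocyte markers lay under the filter. Of 4 erythroid genes tested, *Hba-a1*, which has a near-identical copy, rose, but lost its call in 10 of 15 alternatives (adjusted p up to 0.124, limma), with log2 fold changes from 2.32 to 7.73. Adipocyte markers summed to 13.3 FPKM in med23 Δli replicate 2 and to at most 0.540 FPKM in the other 5 livers, where *Plin1*, *Ucp1* and *Lep* were listed at 0. Without this liver *Tef* (log2 fold change 1.13, adjusted p = 0.0324, limma) and *Nfil3* (1.27, adjusted p = 0.0353, limma) still passed, and the part of the endothelial and pericentral differences in either rise was not tested.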

How the data were processed

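Whole-liver RNA of 6 mice was sequenced (TruSeq v2 libraries, paired reads), 3 med23 f/f and 3 labelled med23 Δli. The submitters' processing notes name FastQC, TopHat and Cuffdiff and the build mm10, and versions are not given in the sources used here. The deposited table holds the authors' FPKM per library, which were used. It also holds FPKM per group and the authors' own fold change, p-value and q-value of each gene, which were not used. Although the study's methods state a median read number, the depth of each library is not given in the files. The only error is therefore the spread between mice.

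Values were taken as log2(FPKM + 0.1), a scale that understates changes of genes with low values. The 11956 genes that averaged 0.5 FPKM or more over the libraries were fitted by lmFit and eBayes with trend in limma 3.58.1 (R 4.3.3), without a replicate block, with Benjamini-Hochberg adjustment. On simulated data for this comparison, with 11956 genes of which 200 were changed by 2 on the log2 scale, 193 (96.5%) and 14 unchanged genes were called. This change exceeded that of every clock output gene tested, and simulated spreads were set part way toward the median. The share recovered therefore does not apply to smaller changes or to genes of wide spread such as *Ciart*. Single values had exact two-sided permutation tests. The genes named are the 10 clock output genes, listed genes that passed (at most 4 a list, largest change first), and for *Per2*, *Dbp* and *Nfil3* the 3 genes of highest Pearson's r; other clock genes, *Nr4a1* and leading markers were named after their values were seen. The clock output genes and all lists were chosen with earlier results of these data known, and some genes of these lists are not reported here. Positions are from GENCODE M21 (mm10), promoters from RefSeq (GRCm38.p6). Python 3.11.15 with pandas 2.3.3, numpy 2.4.6, scipy 1.17.1 and matplotlib 3.10.9 was used.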

Additional observations from a re-analysis of the deposited data

How the results depend on the processing

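Over 15 alternatives (no filter, a filter at 1 FPKM, a pseudocount of 1 or 0.01, median centring, quantile normalization, eBayes without trend or robust, a replicate block, and each library left out), *Tef* and *Nfil3* passed in every one, with log2 fold changes of 1.03 to 1.31 and 1.01 to 1.42 and adjusted p up to 0.0337 and 0.0437 (limma). The number of clock output genes that rose was 2 in each, except 4 without control replicate 3, and 0 fell in each. Leaving out single libraries thus gave 2 to 4 risen. With the replicate block 2 genes rose, *Tef* (adjusted p = 0.0188, limma) and *Nfil3* (0.0160), and 2 of the other clock genes rose. Libraries with the same number did not deviate together over all genes tested (r of −0.02, −0.05 and −0.12), so the numbers were not used as pairs. A correlation over all genes cannot exclude pairs that affect only some genes. The risen other clock genes, 3 in the reported test, were 1 without a filter and 1 to 5 with single libraries left out (5 without control replicate 3, and 1 without control replicate 1 or any med23 Δli liver). Fallen ones were 1 without a filter (*Arntl2*) and 0 to 1 with single libraries left out (*Arntl* without control replicate 2, *Fbxl21* without control replicate 3). Leaving out single libraries gave −0.18 to 0.29 for *Per2*, below 0 without replicate 2 of either group (−0.18 and −0.10), and −0.41 to 0.16 for *Hlf*, above 0 without control replicate 1, and the cause was not tested. The log2 ratio of PAR bZIP genes to *Nfil3* differed by −0.53 with a pseudocount of 1 and by −0.55 with *Dbp* alone as the activator. A pseudocount of 1 in the fit gave smaller log2 fold changes for *Ciart* (0.79), *Bhlhe41* (0.42) and *Dbp* (0.31), none of which passed. With 3 livers per group, exact tests cannot go under 0.1, and FPKM gives no read counts, so no counting error can be given at low levels (*Per3*, *Dbp*).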

Other observations

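The genes whose pattern over the 6 libraries was most like that of 3 clock output genes were looked up by Pearson's r of log2(FPKM + 0.1), as a description over 6 values that share the groups. Nearest to *Per2* was *Cdc14b*, a phosphatase gene (r = 0.971), followed by *Angptl2* (r = 0.971) and *Snx25* (r = 0.965). *Snx25*, a sorting nexin gene, was at 7.01, 5.54 and 5.99 FPKM in the controls and at 6.09, 6.85 and 6.18 FPKM in livers labelled med23 Δli, so its range was narrower than that of *Per2*.

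Nearest to *Dbp* were *Pip4k2c* (r = 0.995), *Chil1* (r = 0.994) and *Phc2* (r = 0.993). *Chil1*, a chitinase-like gene, was at 0.553, 0.353 and 1.33 FPKM in the controls and at 1.21, 1.68 and 0.651 FPKM in the others, close to the levels of *Dbp* itself. Nearest to *Nfil3* were *Pde7a*, a cAMP phosphodiesterase gene (r = 0.999), *Vmn2r3* (r = 0.998) and *Pnpla8*, a phospholipase gene (r = 0.998). *Pnpla8* was at 16.5, 12.9 and 18.3 FPKM in the controls and at 28.2, 27.8 and 28.1 FPKM in livers labelled med23 Δli. With 11956 genes compared over 6 values, correlations near 1 are found for each of these 3 genes.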
